A study of Arabidopsis thaliana with 24 samples.

Results

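The CYP71B genes of Arabidopsis thaliana are a family of cytochrome P450 genes, and 19 of them could be followed on the arrays, out of 13356 genes that a probe set named alone. They were taken by name, as every gene of the array annotation whose symbol starts with CYP71B, and a gene with several probe sets was to be shown by its brightest. Each of the 19 had exactly 1 such probe set, so the choice of the brightest changed nothing. The family was chosen by the values of CYP71B23 and CYP71B26 on these same arrays in earlier results, so for these genes the levels and courses are given as a description without a test, and counts of genes past a threshold are over the other 17. A further probe set listed 2 CYP71B genes together and is not used here.

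Cytochrome P450 enzymes are heme proteins, most of them held in the membrane of the endoplasmic reticulum, that use oxygen and electrons from a reductase to oxidise small molecules. Plants carry large P450 families that arose largely by gene duplication, and many members act in the making of defence compounds, hormones, pigments and wall polymers. Within CYP71B, CYP71B15 (PAD3) is known for the last steps of the synthesis of camalexin, the main indole phytoalexin of Arabidopsis, and CYP71B6 for the conversion of indole-3-acetonitrile toward indole-3-carbaldehyde and indole-3-carboxylic acid. The annotation used here named no probe set for CYP71B15 alone, so it is not analysed here. No role is stated below for the other genes of the family.

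The plants were Col-0, the common laboratory strain, grown on rafts over liquid Murashige and Skoog medium in days of 16 h of light. At day 16, 3 h into the light period, bleomycin was added to 1.5 µg/ml together with mitomycin to 22 µg/ml. Bleomycin breaks DNA strands and mitomycin crosslinks them. All groups received both agents: shoots at 0.5, 1, 3, 6, 12 and 24 h, and roots at the same times, with 2 arrays in each of the 12 groups. Untreated plants were not analysed here, so a difference between times cannot be told apart from the hour of day, the plants' growth or the handling of the rafts. The samples fell 3.5, 4, 6, 9, 15 and 3 h after lights-on, so only the 1 h and 24 h samples came near the hour of day of the 0.5 h samples. Whether both arrays of a group stem from separate cultures is not in the labels, so p-values cover only the spread between these arrays, which may be technical.

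Values are the authors' MAS5 signals, a linear intensity per probe set scaled to a trimmed mean of 100 on every array. The median signal was 35.96 to 39.91 on shoot arrays and 45.25 to 47.76 on root arrays. Replicate arrays correlated with r between 0.984 and 0.993. The summed signal of 3 of 3 shoot markers (LHCB4.2, LHCB4.1 and RCA, all of photosynthesis) was 9416 to 19724 in shoots and 235 to 481 in roots, and that of 3 of 3 root markers (PYK10, EXPA7 and EXPA18) was 399 to 812 in shoots and 3014 to 3797 in roots. Of the shoot arrays, replicate 1 at 12 h and replicate 2 at 24 h stood nearest to the roots, with a mean r to the root arrays of 0.714 and 0.711, against 0.678 to 0.692 for the other 10. Values without those arrays are given beside the shoot calls at 12 and 24 h.

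Single CYP71B genes ran in opposite directions between the organs, CYP71B5 and CYP71B34 among those higher in shoots and CYP71B37 and CYP71B6 among those lower. Tested with limma on log2(signal + 16) over all 24 arrays, 11 of the 17 genes passed an adjusted p of 0.05, 7 of them higher in shoots and 4 lower. The share of all 22746 probe sets that passed was 76.8%, with 27.6% higher in shoots and 49.2% lower, so the count of passing CYP71B genes is not a result about the family. The ranges of the 12 shoot and 12 root arrays did not overlap for 8 of the 17, against 35.1% of all probe sets. Of these 8 genes, 6 were higher in shoots (12.9% of all probe sets) and 2 were lower (22.2%). The median difference was 0.04 over the 17 genes and -0.11 over all probe sets. The median of the 17 was the value of CYP71B30P, which had a mean signal of only 1.06. In whole organs, fewer cells of a type and less RNA per cell cannot be told apart. A difference on the log2(signal + 16) scale understates the change of low signals.

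**Figure D1:**
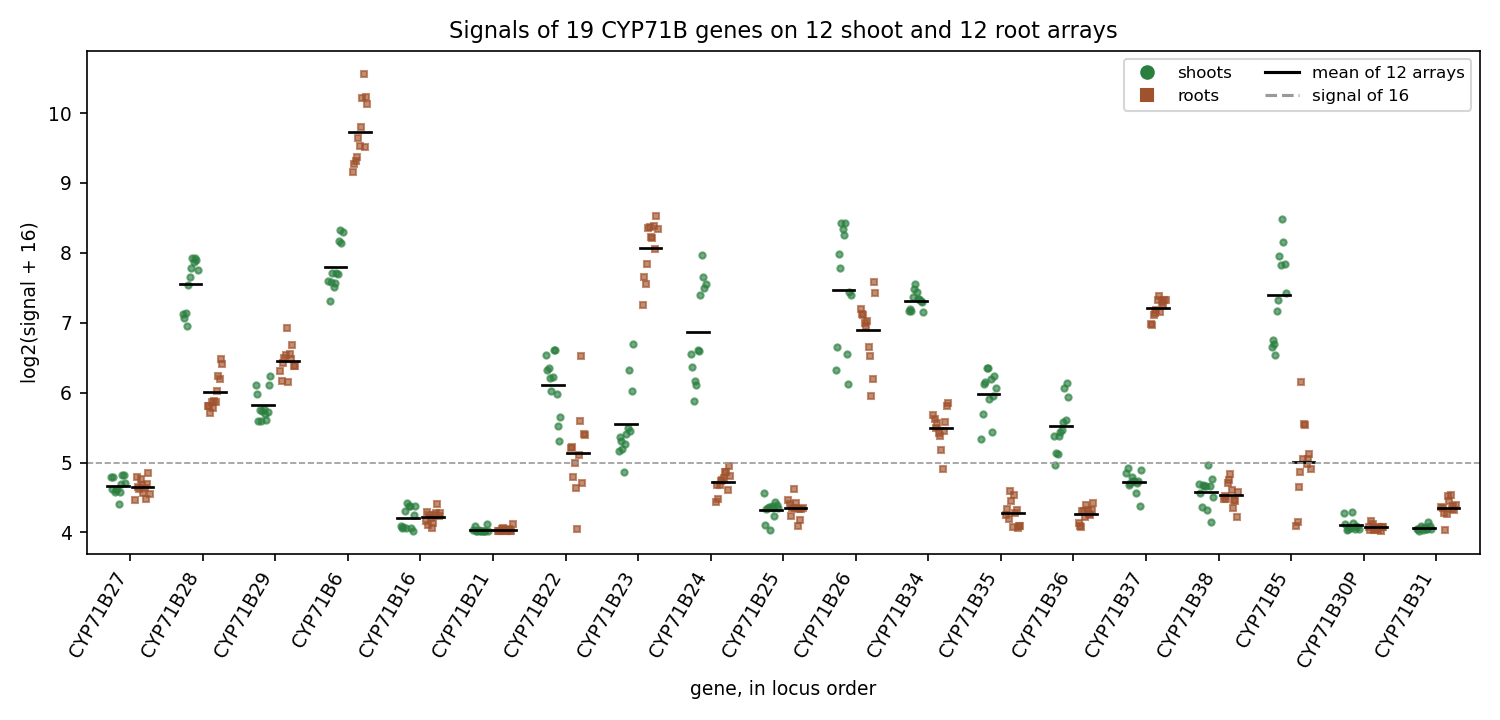
Level of each of the 19 CYP71B genes, in the order of their loci, on the log2(signal + 16) scale. Green circles are the 12 shoot arrays and brown squares to their right the 12 root arrays, black bars are means of 12 arrays and the dashed line marks a signal of 16. The ranges of CYP71B23, CYP71B6 and CYP71B37 lay wholly higher in roots, and those of CYP71B28, CYP71B24, CYP71B34, CYP71B35, CYP71B36 and CYP71B5 wholly higher in shoots.

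CYP71B5 and CYP71B24 were higher in shoots. CYP71B5 had a signal of 169.7 ± 84.4 in shoots and 18.7 ± 14.7 in roots (SD, n = 12 arrays each), a log2 difference of 2.39 ± 0.10 (SE; limma adjusted p = 6.491e-14). CYP71B24 had 114 ± 63.7 in shoots and 10.5 ± 2.76 in roots, a log2 difference of 2.14 ± 0.09 (SE; limma adjusted p = 7.323e-14). For both genes the lowest shoot array lay above the highest root array. The size of such differences depends on the constant added to low root signals: with 1 in place of 16 they were 3.41 for CYP71B5, 3.16 for CYP71B24 and 3.64 for CYP71B35.

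CYP71B34, CYP71B35 and CYP71B36, which follow one another on chromosome 3 with no gene between them in the TAIR10.1 annotation, were all higher in shoots. CYP71B34 had 144 ± 14.5 in shoots and 29.7 ± 7.79 in roots (SD, n = 12 arrays each), a log2 difference of 1.82 ± 0.04 (SE; limma adjusted p = 2.286e-17). CYP71B35 had 48.8 ± 13.8 and CYP71B36 31.3 ± 12.7 in shoots, and both stayed below 16 on every root array, at most 8.06 for CYP71B35 and 5.35 for CYP71B36. Their log2 differences were 1.71 ± 0.08 and 1.26 ± 0.06 (SE; limma adjusted p = 2.882e-13 and 6.64e-13). CYP71B37, the next gene after CYP71B36, went the other way: 10.6 ± 2.57 in shoots and 132 ± 13.9 in roots, a log2 difference of -2.48 ± 0.06 (SE; limma adjusted p = 9.462e-18). Its signal was 4.89 to 14.4 on the shoot arrays and 109.8 to 152 on the root arrays.

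CYP71B28 was higher in shoots, at 178 ± 47.0 against 49.3 ± 12.5 in roots (SD, n = 12 arrays each), and the next gene CYP71B29 was lower in shoots, at 41.4 ± 9.38 against 72.8 ± 13.7 in roots. The log2 differences were 1.55 ± 0.04 for CYP71B28 and -0.63 ± 0.06 for CYP71B29 (SE; limma adjusted p = 1.164e-16 and 1.534e-08). The organ ranges of CYP71B29 overlapped. CYP71B22 was higher in shoots, at 55.9 ± 19.7 against 22.3 ± 19.1 in roots, a log2 difference of 0.98 ± 0.15 (SE; limma adjusted p = 1.084e-05) with overlapping ranges. Its neighbour CYP71B23 had higher signals in roots, as given below.

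CYP71B6, the enzyme of indole-3-carbaldehyde formation, was lower in shoots, at 213 ± 56.1 against 874 ± 298 in roots (SD, n = 12 arrays each), a log2 difference of -1.93 ± 0.09 (SE; limma adjusted p = 4.89e-13). Its shoot arrays ran from 143 to 307 and its root arrays from 554 to 1497, with no overlap.

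The remaining 7 genes, CYP71B16, CYP71B21, CYP71B25, CYP71B27, CYP71B30P, CYP71B31 and CYP71B38, had a mean signal below 16 and could not be told from background without detection calls. CYP71B27 is annotated as a transcribed pseudogene, and CYP71B30P is listed as protein coding although its symbol ends in P. CYP71B31 alone among the 7 passed the organ test (log2 difference -0.29 ± 0.04, SE; limma adjusted p = 9.425e-07), with 0.741 ± 0.392 in shoots and 4.48 ± 1.81 in roots, and it lost that call when each array was centred on its median (-0.08, adjusted p = 0.0686). None of the 7 passed at any time against 0.5 h.

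All 19 genes matched the TAIR10.1 annotation of RefSeq, which names 37 CYP71B genes. There were 15 of the 19 on chromosome 3, 3 on chromosome 1 and 1 on chromosome 2. A single stretch of chromosome 3 held 25 genes, of which 18 were CYP71B genes, and 11 of those had a probe set here, CYP71B23 and CYP71B26 among them.

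CYP71B23 was a gene of high root signal. In shoots its 2 arrays gave 19.9 and 25.0 at 0.5 h, 23.7 and 20.6 at 1 h, 13.1 and 22.4 at 3 h, 26.3 and 29.3 at 6 h, 64.3 and 28.0 at 12 h, and 49.2 and 87.4 at 24 h. In roots they gave 137 and 185 at 0.5 h, 172 and 212 at 1 h, 310.1 and 314 at 3 h, 283 and 281 at 6 h, 316 and 249 at 12 h, and 354 and 309 at 24 h. The lowest root array lay above the highest shoot array, and the means over 12 arrays were 34.1 ± 21.9 in shoots and 260.2 ± 68.5 in roots (SD), a log2 difference of -2.52 ± 0.10 (SE).

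In roots the CYP71B23 signals at 3 h and later all lay above those at 0.5 and 1 h, with log2 differences from 0.5 h of 0.24 at 1 h, 0.90 at 3 h, 0.76 at 6 h, 0.76 at 12 h and 0.98 at 24 h (each ± 0.24, SE). In shoots the differences were -0.01, -0.20, 0.19, 0.63 and 1.10 at the same times. The shoot arrays from 0.5 to 6 h gave only 13.1 to 29.3, so these values depend on the added constant. With 1 added in place of 16 the 12 h difference was 0.90, and with 64 it was 0.33. Over the alternatives other than leaving out 1 array, the 24 h difference ran from 0.60 to 1.51. The higher shoot array at 12 h and at 24 h was in each case the one nearest to the roots. Without replicate 1 at 12 h the 12 h difference was 0.20, and without replicate 2 at 24 h the 24 h difference was 0.76. The summed signal of the 3 root markers was 796 and 588 on the 2 shoot arrays at 12 h and 464 and 486 on those at 24 h. Most of this sum was PYK10, with 775 and 563 at 12 h and 440 and 466 at 24 h. EXPA7 gave 11.4 and 9.93 at 12 h and 8.71 and 4.43 at 24 h. EXPA18 gave 9.30 and 14.5 at 12 h and 14.8 and 15.9 at 24 h. On the array nearest to the roots PYK10 was thus higher at both times, while EXPA18 was lower at 12 h and EXPA7 lower at 24 h. These EXPA7 and EXPA18 signals all lay below 16, where a signal could not be told from background. The summed signal of the 3 shoot markers was 9416 and 11657 at 12 h and 16080 and 12840 at 24 h. The part of root RNA in these shoot values was not tested.

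In shoots the highest group mean of CYP71B26 was 4.82 times its lowest. Its shoot arrays gave 63.98 and 84.6 at 0.5 h, 236 and 204 at 1 h, 327 and 309 at 3 h, 289 and 327 at 6 h, 78.2 and 53.7 at 12 h, and 158 and 153 at 24 h. In roots they gave 131 and 124 at 0.5 h, 122 and 112 at 1 h, 108 and 114 at 3 h, 85.1 and 75.8 at 6 h, 45.9 and 57.0 at 12 h, and 176 and 157 at 24 h. Shoots were thus high from 1 to 6 h and low at 0.5 and 12 h, while roots were lowest at 12 h and highest at 24 h.

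The CYP71B26 differences from 0.5 h in shoots were 1.39, 1.90, 1.85, -0.15 and 0.93 on the log2 scale at 1, 3, 6, 12 and 24 h (each ± 0.14, SE). In roots they were -0.11, -0.17, -0.57, -1.09 and 0.35. Both organs had their lowest mean at 12 h, though in shoots the arrays at 12 h overlapped those at 0.5 h. Without shoot replicate 1 at 12 h, one of the arrays closest to roots, the 12 h shoot difference was -0.36. The shoot value at 24 h depends on the early time it is set against: with 1 h in place of 0.5 h the difference was -0.46. The organ ranges overlapped, with means of 190.3 ± 106 in shoots and 109.0 ± 38.3 in roots (SD, n = 12 arrays each).

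**Figure D2:**
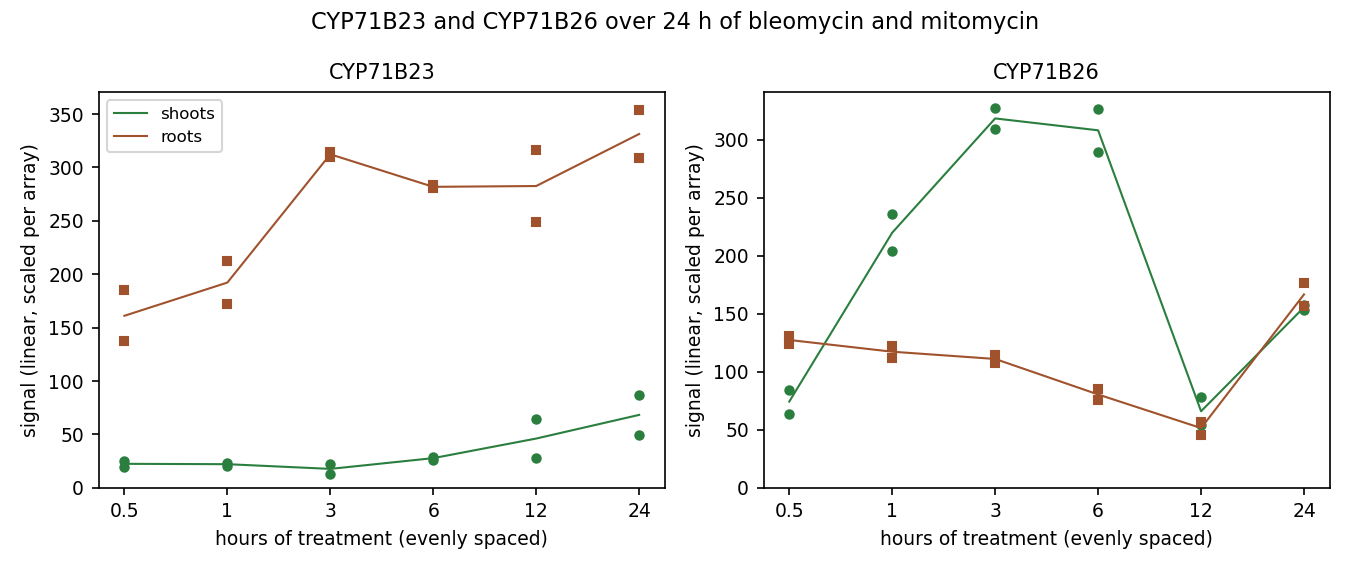
Signals of CYP71B23 and CYP71B26 by hours after the agents were added, with the 6 times spaced evenly. Points are single arrays and lines join the means of 2 arrays. CYP71B23 reached 354 in roots at 24 h, and CYP71B26 reached 327 in shoots at 3 and 6 h against 53.7 to 78.2 at 12 h.

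Over the other 17 genes, 7 passed the test for any change over time in shoots (limma moderated F, 40.4% of all probe sets passed) and 4 in roots (16.3%). The shoot genes were CYP71B28, CYP71B24, CYP71B5, CYP71B36, CYP71B35, CYP71B6 and CYP71B29, and the root genes were CYP71B28, CYP71B34, CYP71B5 and CYP71B6. Against 0.5 h, 1, 3, 3, 5 and 6 genes passed in shoots at 1, 3, 6, 12 and 24 h, where 8.76%, 12.3%, 20.8%, 28.7% and 19.0% of all probe sets did. In roots 0, 1, 3, 3 and 3 passed, against 0.470%, 5.36%, 5.84%, 9.66% and 13.1%. At 1 h in roots, where limma called 0, 2 of the 17 had an unadjusted p below 0.05. All times within an organ share the 0.5 h arrays, so the calls are not independent of each other. The 18 shoot calls were all higher than 0.5 h, where 4.16%, 5.66%, 9.83% and 14.0% of all probe sets were higher at 1, 3, 6 and 12 h. Of the 10 root calls 9 were higher, where 0.207%, 2.95%, 3.21% and 5.10% of all probe sets were. Of these 28 calls 14 held in every fit that left out 1 array.

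CYP71B28 rose in both organs. Its shoot arrays gave 124 and 118 at 0.5 h, 126 and 108 at 1 h, 169 and 186 at 3 h, 205 and 228 at 6 h, 219 and 227 at 12 h, and 223 and 201 at 24 h. All shoot arrays from 3 h on lay above those at 0.5 and 1 h, and the gene rose at 3, 6, 12 and 24 h, by 0.50, 0.76, 0.81 and 0.74 on the log2 scale (each ± 0.10, SE; limma adjusted p at 24 h = 5.174e-05). In roots it had 73.5 and 69.0 at 24 h against 40.1 and 40.2 at 0.5 h, a rise of 0.64 ± 0.10 (SE; limma adjusted p = 0.0003929). Its root call at 12 h (0.40) was lost in 4 of 4 fits without 1 array.

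CYP71B5 rose in shoots at 6, 12 and 24 h. Its shoot arrays gave 84.1 and 91.6 at 0.5 h, 88.2 and 76.8 at 1 h, 128 and 144 at 3 h, 231 and 212 at 6 h, 342 and 269.9 at 12 h, and 212 and 156 at 24 h. The log2 differences from 0.5 h were 1.19 at 6 h, 1.62 at 12 h and 0.93 at 24 h (each ± 0.24, SE; limma adjusted p = 0.001218, 4.219e-05 and 0.009651). The 24 h call was lost without shoot replicate 1 at 0.5 h (adjusted p = 0.0623) or at 24 h (adjusted p = 0.09909).

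The lowest root signals of CYP71B5 were those at 0.5 h. The root arrays gave 1.04 and 1.83 at 0.5 h, 9.04 and 13.3 at 1 h, 55.0 and 17.2 at 3 h, 30.9 and 30.4 at 6 h, 15.4 and 17.1 at 12 h, and 18.98 and 13.97 at 24 h. All root arrays from 1 h on lay above those at 0.5 h, and the calls at 3 h (1.48, and 0.93 without root replicate 1 at 3 h) and 6 h (1.42) held in every fit without 1 array, while those at 12 h (0.89) and 24 h (0.89) did not. Both 0.5 h signals lay below 16, where a signal could not be told from background, and the size of the differences followed the added constant: with 64 they were 0.59 at 3 h and 0.53 at 6 h, and with 1 they were 3.73 and 3.72. The 24 h root call was also lost with 64 added in place of 16 (0.30, adjusted p = 0.1834) and with 1 h as the early time (0.26, adjusted p = 0.6112).

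CYP71B24 and CYP71B36 rose late in shoots. CYP71B24 gave 77.5 and 66.5 at 0.5 h, 43.1 and 56.1 at 1 h, 53.2 and 82.0 at 3 h, 80.7 and 152 at 6 h, 234 and 186 at 12 h, and 165 and 172 at 24 h. Its log2 differences were 1.35 ± 0.21 at 12 h and 1.07 ± 0.21 at 24 h (SE; limma adjusted p = 9.836e-05 and 0.001716). CYP71B36 had 54.4 and 45.2 at 24 h and 50.9 and 33.0 at 12 h, against 25.8 and 15.1 at 0.5 h, with differences of 0.86 ± 0.14 at 24 h and 0.67 ± 0.14 at 12 h (SE; limma adjusted p = 0.0003819 and 0.001888). These calls held in every fit that left out 1 array, though the CYP71B36 difference at 12 h was 0.44 without shoot replicate 1 at 12 h. The CYP71B36 call at 12 h was lost with 1 added in place of 16 (1.02, adjusted p = 0.05092). With the 2 shoot arrays closest to roots left out, the 12 and 24 h differences in shoots were 1.20 and 1.04 for CYP71B24, 0.44 and 0.97 for CYP71B36, 0.83 and 0.81 for CYP71B28 and 1.46 and 1.14 for CYP71B5, and all of these passed. In roots CYP71B24 and CYP71B36 stayed below 16 on all 12 arrays.

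CYP71B6 passed as higher than at 0.5 h at 12 and 24 h in shoots and at 6, 12 and 24 h in roots. Its shoot arrays gave 265 and 298 at 24 h and 271 and 307 at 12 h, against 178 and 143 at 0.5 h. Its root arrays gave 1187 and 1107 at 24 h, 1497 and 718 at 12 h and 877 and 1173 at 6 h, against 554 and 602 at 0.5 h. The root arrays at 1 h (621 and 644) and 3 h (781 and 723) also lay above those at 0.5 h. At 24 h the log2 difference was 0.76 ± 0.22 in shoots and 0.97 ± 0.22 in roots (SE; limma adjusted p = 0.02047 and 0.006337). Each of its calls was lost in some fit without 1 array: at 24 h in shoots without replicate 2 at 0.5 h (adjusted p = 0.1323) or at 24 h (0.1091), and in roots without replicate 1 at 0.5 h (0.0536) or at 24 h (0.059). With the 2 shoot arrays closest to roots left out, the shoot differences were 0.88 at 12 h (adjusted p = 0.03069) and 0.68 at 24 h (adjusted p = 0.1176). Its 12 h difference in roots, 0.83, rested on 1 array, since it was 0.31 without root replicate 1 and 1.35 without replicate 2.

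Against 0.5 h, CYP71B35 passed in shoots only and CYP71B34 in both organs. CYP71B35 had 24.4 and 35.6 in shoots at 0.5 h, 54.0 and 55.3 at 1 h, 65.8 and 65.7 at 3 h, 44.2 and 57.0 at 6 h, 27.1 and 45.7 at 12 h, and 59.8 and 50.9 at 24 h. It passed at 1, 3, 6 and 24 h, by 0.63, 0.84, 0.54 and 0.64 on the log2 scale, and each call was lost in some fit without 1 array. At 24 h the call was lost without shoot replicate 1 at 0.5 h (0.46, adjusted p = 0.196) or at 24 h (0.55, adjusted p = 0.1264), and against 1 h the difference was 0.01. With the 2 shoot arrays closest to roots left out it was 0.73 (adjusted p = 0.02527).

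CYP71B34 fell in roots at 6 h, where its arrays gave 20.2 and 14.03 against 35.2 and 33.5 at 0.5 h, by 0.61 ± 0.11 on the log2 scale (SE; limma adjusted p = 0.001384). This was the only fall called against 0.5 h among the 17 genes (2.63% of all probe sets were lower in roots at 6 h), and it held in every fit without 1 array. In shoots it passed at 3 h (0.33 ± 0.11, SE; limma adjusted p = 0.0499), a call lost in 4 of 4 fits without 1 array.

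**Figure D3:**
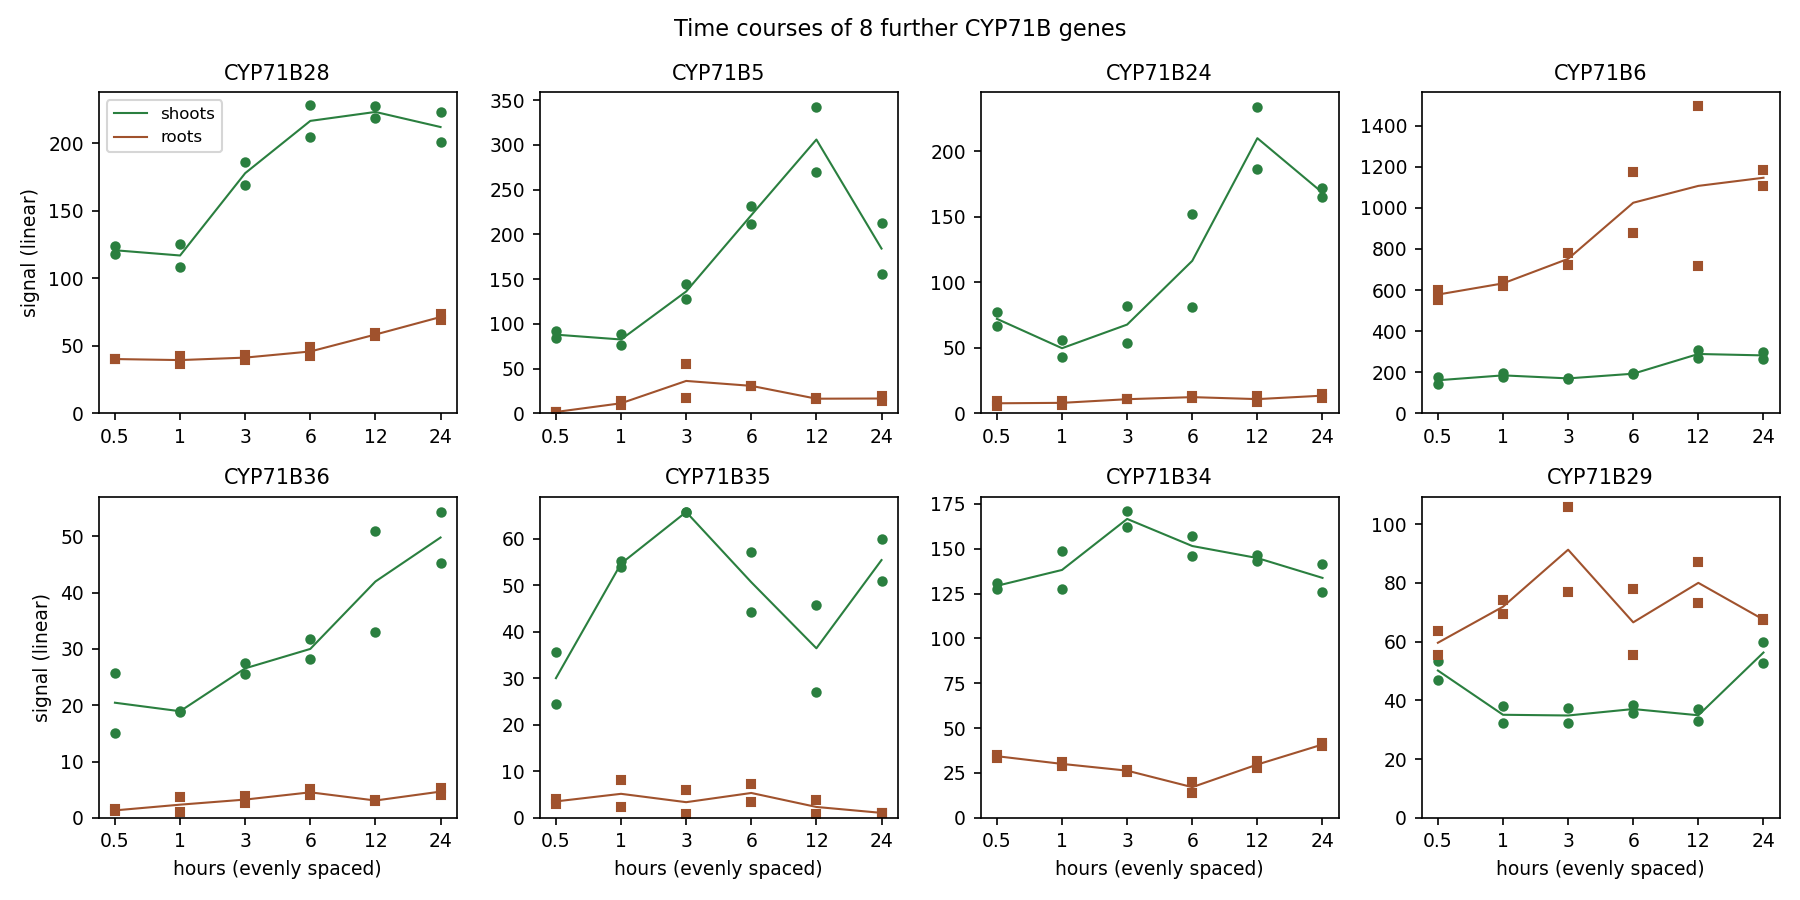
Signals by hours after the agents were added for CYP71B28, CYP71B5, CYP71B24, CYP71B6, CYP71B36, CYP71B35, CYP71B34 and CYP71B29, with shoots in green and roots in brown. Points are single arrays and lines join the means of 2. CYP71B24 reached 234 in shoots at 12 h, and CYP71B34 had its lowest root arrays, 20.2 and 14.03, at 6 h.

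CYP71B29, CYP71B22 and CYP71B37 passed at no single time against 0.5 h. CYP71B29 passed the test for any change in shoots (limma adjusted p = 0.01896), with 53.2 and 47.0 at 0.5 h, 32.1 to 38.3 on the arrays from 1 to 12 h, and 52.8 and 59.7 at 24 h. CYP71B22 had 23.6 and 34.2 in shoots at 24 h against 77.2 and 64.5 at 0.5 h, and its root arrays at 12 h were far apart, at 76.3 and 10.1. CYP71B37 had 110.2 and 109.8 in roots at 0.5 h, below every later root array, and 144 and 145 at 24 h. Its 24 h root difference of 0.35 ± 0.13 (SE) did not pass (limma adjusted p = 0.1067).

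At 24 h, 6 of the 17 genes were higher than at 0.5 h in shoots, where 8.85% of all probe sets were, and 0 were lower, where 10.1% were; by an unadjusted p below 0.05 limma gave 1 lower. In roots 3 were higher (6.40% of all probe sets) and 0 lower (6.68%), with 0 lower also at an unadjusted p below 0.05. The median 24 h difference was 0.06 over the 17 genes and -0.05 over all probe sets in shoots, and 0.15 and 0.02 in roots. The shoot median of the 17 was the value of CYP71B27, which had a mean signal of 9.34, below 16.

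**Figure D4:**
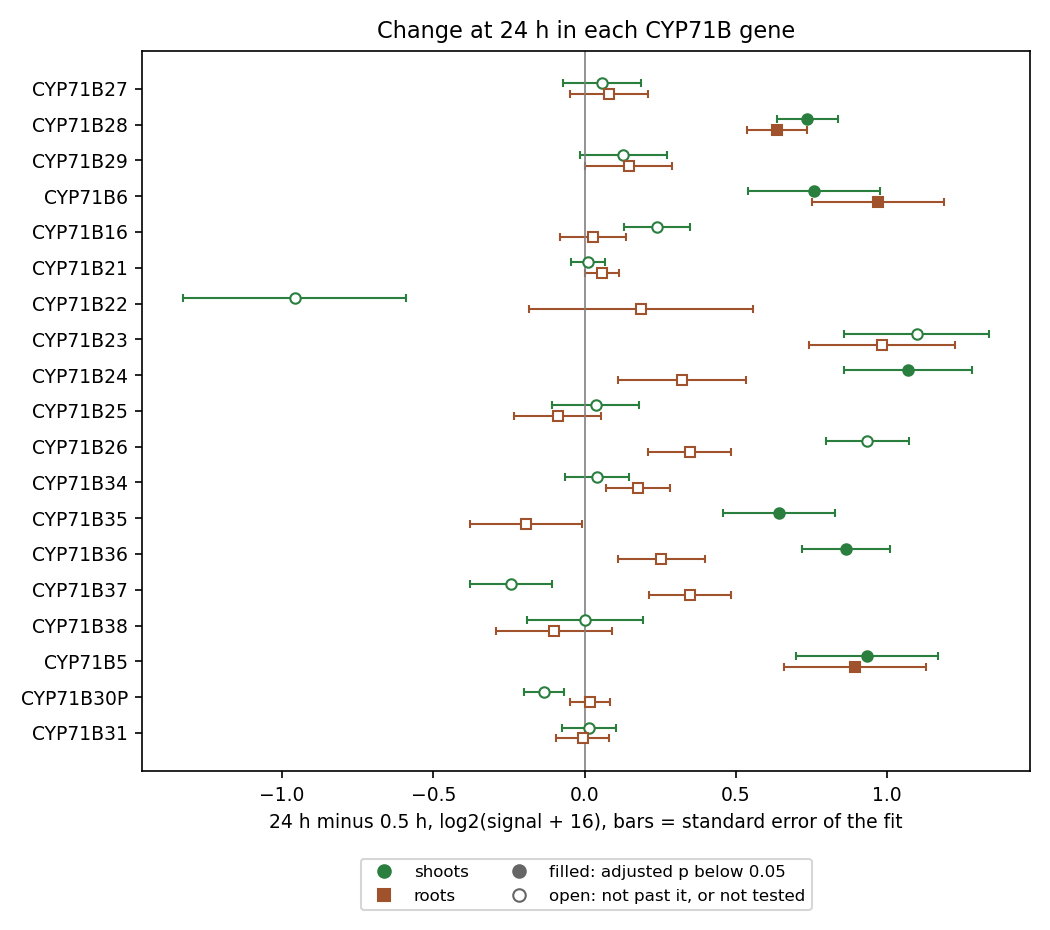
Difference between 24 h and 0.5 h for each CYP71B gene on the log2(signal + 16) scale, with shoots and roots side by side and bars of 1 SE from limma. Filled points passed an adjusted p of 0.05, and open points did not or were not tested (CYP71B23 and CYP71B26). CYP71B24 had the highest filled point, 1.07 in shoots.

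The 24 h change was not shown to differ between the organs for any of the 17 genes: limma called 0, where 9.39% of all probe sets were called, and 5 had an unadjusted p below 0.05. For CYP71B28 the shoot change minus the root change was 0.10 (95% interval -0.20 to 0.40), for CYP71B5 it was 0.04 (-0.66 to 0.74) and for CYP71B6 it was -0.21 (-0.86 to 0.44). The intervals of CYP71B5 and CYP71B6 leave room for a sizeable difference either way, and the CYP71B5 value turned to -1.80 with 1 added in place of 16 (adjusted p = 0.03492). The unadjusted 95% interval left out 0 in 5 genes. These were CYP71B35 with 0.84 (0.28 to 1.39), CYP71B24 with 0.75 (0.11 to 1.38), CYP71B36 with 0.61 (0.18 to 1.04), CYP71B37 with -0.59 (-0.99 to -0.19) and CYP71B22 with -1.14 (-2.25 to -0.04). Their limma adjusted p were 0.05501, 0.1329, 0.07041, 0.06071 and 0.1891. For CYP71B23 the difference was 0.11, and -0.22 to 0.45 when 1 array was left out. For CYP71B26 it was 0.59, but -0.91 with 1 h as the early time and -0.16 with the mean of 0.5 and 1 h.

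The genes whose course was most like that of CYP71B23, by Pearson r over the 24 arrays after each organ's mean was removed, were AT3G10190 (r = 0.867), AT5G42050 (0.854) and AT3G47480 (0.848), out of 6018 genes with a mean signal of at least 50. For CYP71B26 they were PHOS34 (0.831), AT5G64180 (0.811) and AT1G18360 (0.773, made of 0.874 over the shoot arrays and 0.279 over the root arrays). Among the 10 CYP71B genes with a mean signal of at least 30, CYP71B6 and CYP71B23 were the most alike (0.736), then CYP71B28 and CYP71B24 (0.719). CYP71B29 and CYP71B22 were the least alike (-0.376). The arrays share times, plants and hours of day, so these values only describe the likeness.

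Few other genes of the surrounding pathways had a probe set named for 1 gene. Of 16 genes of the indole phytoalexin pathway 2 were measured, CYP71B6 and AT1G26380 (FOX1, an oxidase in the synthesis of indole-3-carbonyl nitrile). AT1G26380 had a mean signal of 5.56 in shoots and 179 in roots, a log2 difference of -2.66 ± 0.27 (SE; limma adjusted p = 4.393e-08), and passed at 24 h in neither organ. In roots its log2 differences from 0.5 h were 1.56 at 3 h, 2.07 at 6 h, 2.21 at 12 h and 1.84 at 24 h, of which only that at 12 h passed (limma adjusted p = 0.04045), from arrays as far apart as 826 and 59.3. Of 9 electron donors of P450 enzymes 1 was measured, ATR3 (AT3G02280), which was lower in shoots by a log2 difference of -0.21 ± 0.06 (SE; limma adjusted p = 0.002799) and passed at 24 h in neither organ. A search for other symbols that begin with CYP and a digit found 7 genes, of which 2, CYP71 and CYP59, are cyclophilins and not P450 genes. Of the 5 P450 genes 1 was higher in shoots, CYP78A9 (1.20 ± 0.07, SE; limma adjusted p = 4.275e-11), 3 were lower and 1 did not pass. The lower ones included CYP718, with -0.48, and the cyclophilins CYP59 and CYP71 were lower as well, with -0.37 and -0.34. The mean signal of CYP718 was 0.909 in shoots and 8.41 in roots, both below 16, where a signal could not be told from background. None of the 7 passed at 24 h in either organ. At the earlier times CYP718 passed in roots at 3 h (0.96, limma adjusted p = 0.0002002) and CYP71 in shoots at 12 h (0.32, limma adjusted p = 0.01532). The root arrays of CYP718 gave 16.9 and 24.8 at 3 h, against 2.46 and 3.37 at 0.5 h.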

How the data were processed

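RNA of shoots and roots was measured on 24 Affymetrix ATH1 arrays, 2 for each of 12 groups taken from the labels. Per the submitters' processing notes the authors used MAS5, and the deposited signal intensities are on a linear scale. In the files each array had a trimmed mean of 100, with 2% left out at each end. Version and settings of MAS5 are not given in the sources used here. No depth applies, and the number of arrays limits precision.

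The 64 array controls of 22810 probe sets were left out. Signals were fitted as log2(signal + 16) in R 4.3.3 with limma 3.58.1, with 1 mean per group, variances moderated along an intensity trend (residual degrees of freedom 12, prior 4.91). Benjamini-Hochberg adjustment of p-values ran over all 22746 probe sets. The code was tested on simulated data. Figures were drawn with matplotlib 3.10.9, and tables were made with pandas 2.3.3, numpy 2.4.6 and scipy 1.17.1 under Python 3.11.15.

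The annotation named 1 gene for 13513 probe sets and several for 503, and 8730 were not listed. All CYP71B genes with a probe set of their own are named, and so are the 3 genes most like CYP71B23 and CYP71B26. From the lists, measured genes are named where there are at most 5, otherwise the 3 largest past the threshold each way. The members and lists were chosen with earlier results of these data known. Alternatives were other added constants, scalings, filters, baselines and left-out arrays. Sequences are not used here.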

Additional observations from a re-analysis of the deposited data

Results flagged for a closer look

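In 8 CYP71B genes with a mean signal of at least 16 in both organs, times were sought at which every shoot array moved one way from 0.5 h and every root array the other. There were 10 such cases in 4 genes, 3 of them in CYP71B26, whose values chose the family. Without CYP71B23 and CYP71B26 there were 7 cases in 30 combinations of gene and time, against 10.9% of the combinations over the 13726 probe sets that met the same minimum. The times of a gene share the 0.5 h arrays, so cases in 1 gene are not independent. Except at 24 h, the differences between organs were not tested.

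CYP71B26 lay above its 0.5 h level in shoots and below it in roots at 1, 3 and 6 h, with a shoot minus root difference of the change of 1.50, 2.07 and 2.42 on the log2 scale. At 6 h this was made of 1.85 in shoots and -0.57 in roots. CYP71B29 lay below it in shoots and above it in roots, with -0.59 at 1 h, -0.87 at 3 h and -0.72 at 12 h. At 3 h its shoots gave -0.38 and its roots 0.49. CYP71B34 had 0.58 at 3 h, 0.82 at 6 h and 0.29 at 12 h, and at 6 h its shoots gave 0.20 and its roots -0.61. CYP71B22 had -1.14 at 24 h, from -0.96 in shoots and 0.19 in roots, and this difference did not pass the limma test (adjusted p = 0.1891).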

How the results depend on the processing

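The organ calls named above held in all 24 fits that left out 1 array. Quantile normalization over all arrays gave 13 organ calls and centring on medians 16, against 11, and 10 of the 11 held under both. These scalings moved the median organ difference of all probe sets to -0.01 and 0.09, against -0.11, and the share of organ calls higher in shoots to 47.4% and 56.6%, against 36.0%. Centring also moved the share of 24 h shoot calls that were higher to 57.2%, against 46.7%, and turned CYP71B16 (0.19) and CYP71B25 (0.18), both dim, to higher in shoots. The count of genes whose 24 h change differed between organs, 0 as reported, was 1 with a pseudocount of 1, 4 with 64, 1 with quantile normalization over all arrays, 2 within each organ, 2 with median centring, 2 without the dimmest 30% of probe sets, 1 without the intensity trend, 2 with 1 h as the baseline, 2 with the mean of 0.5 h and 1 h, and 3 without both shoot arrays nearest to the roots, an alternative chosen after seeing the data. Leaving out 1 array gave 0 to 1 for it, 1 to 3 for the 24 h root count (3 as reported), 4 to 6 for the 24 h shoot count (6) and 12 to 21 for the calls at 1 to 12 h (19). With a pseudocount of 1 the CYP71B5 24 h change turned to -1.80 (limma adjusted p = 0.03492). CYP71B26 turned at 24 h in shoots to -0.46 with 1 h as the baseline, its 24 h change between organs to -0.91 with 1 h and -0.16 with the mean, and its 12 h shoot difference, -0.15 as reported, ran from -0.36 to 0.070 when 1 array was left out. The causes were not tested. With the replicate number as a block the counts were 11 for organs, 6 and 3 at 24 h in shoots and roots, 0 for the 24 h change, 7 and 4 for any change and 20 at 1 to 12 h. Deviations of same-numbered arrays correlated between groups with r of -0.191 to 0.199, above 0.1 in 6 of 66 pairs. No general pairing by number was seen over these pairs, most of which join groups of different times. Whether shoot and root arrays of the same time and number share plants was not tested. Using other probe sets of a gene could not be run, since each gene had 1.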
